A study of Homo sapiens with 14 samples.

Results

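The chromatin positions of 2 proteins were compared after HS-SY-II cells, a line from synovial sarcoma, had spent 48 h in 100 nM WA-68, a PROTAC that directs the protein BRD9 to degradation. One library was made by chromatin immunoprecipitation and sequencing (ChIP-seq) with an antibody to GLTSCR1. The other was made with an anti-HA antibody against an HA-tagged SS18::SSX fusion protein, here called the fusion. The members are the 13677 GLTSCR1 regions and the 26405 fusion regions that were called at 48 h on chromosomes 1 to 22, X and Y, together 40082 of the 183499 regions in the 9 peak lists of the series. Peaks of a list with the same coordinates were joined into 1 region, and a region counted as shared when a region of the other list overlapped it by at least 1 bp. The other 7 lists are 4 of GLTSCR1 (DMSO, and 12, 24 and 96 h of 100 nM WA-68) and 3 of the fusion (DMSO, and 12 and 24 h of the same dose). All cells carry the genotype label WT, and the labels do not say how the HA tag was introduced, whether the tagged cells are 1 clone, or whether the GLTSCR1 libraries came from tagged cells. The labels give the DMSO cells no time. Each group held 1 library, so there was no replicate error and no test was made. The differences described are between 2 libraries with different antibodies, and possibly from different cells. Ranges in brackets after a share are its exact 95% binomial interval (Clopper-Pearson), for counting error alone. Regions that lie close together are not independent.

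BAF complexes are ATP-driven chromatin remodellers that occur in several forms. GLTSCR1, the product of the gene BICRA, belongs to the form called GBAF, together with BRD9, whose bromodomain reads acetylated lysines. SS18 is a subunit of GBAF and of canonical BAF, and in synovial sarcoma a translocation joins it to an SSX protein, whose tail binds nucleosomes with ubiquitinated histone H2A. The fusion is known for occupying developmental genes that Polycomb complexes otherwise cover. Each fold given below is the authors' enrichment of a region's strongest summit over its local background, a ratio within 1 list, so a fold from one list is not set against a fold from the other. Read depth is unknown from peak lists. A missing region means that the signal was below the peak caller's threshold.

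The promoters of 8 genes are shown as examples of the sequence at gene starts in the 3 gene-end classes. They are RefSeq sequences of GRCh38.p14, from 250 bases before to 50 bases after a transcription start, written 5′ to 3′ on the gene's strand. ISL2, SULF2, SPATA17, YLPM1, NEUROG3 and FGFRL1 were the first 2 genes of each class, by rank of fold, whose strongest summit lay inside such a window. JUND and H3C3 were chosen after their values were seen. Capitals mark every match, on either strand, to 10 motifs: AP-1 sites (TGANTCA), the cyclic AMP element CRE (TGACGTCA), the CCAAT box that NF-Y binds, the GC box (GGGCGG) of SP1 and its relatives, ETS sites (CCGGAAG), the TATA box written as TATAAA, YY1 sites (AAGATGGCG), the homeobox core written as TAATTA, an E-box of tissue bHLH factors (CAGCTG) and an E-box of MYC and its relatives (CACGTG). Matches that overlapped would share capitals. The first 3 lines are genes with both proteins, the next 3 genes with GLTSCR1 only and the last 2 genes with the fusion only.
ISL2, chr15:76336523-76336822, plus strand: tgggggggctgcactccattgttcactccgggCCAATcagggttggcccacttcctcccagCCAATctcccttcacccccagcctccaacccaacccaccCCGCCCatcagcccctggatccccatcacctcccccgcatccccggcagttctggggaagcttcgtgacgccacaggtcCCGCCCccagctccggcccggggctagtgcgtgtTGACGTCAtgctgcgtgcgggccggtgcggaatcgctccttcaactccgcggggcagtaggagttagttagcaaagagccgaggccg
SULF2, chr20:47786578-47786877, minus strand: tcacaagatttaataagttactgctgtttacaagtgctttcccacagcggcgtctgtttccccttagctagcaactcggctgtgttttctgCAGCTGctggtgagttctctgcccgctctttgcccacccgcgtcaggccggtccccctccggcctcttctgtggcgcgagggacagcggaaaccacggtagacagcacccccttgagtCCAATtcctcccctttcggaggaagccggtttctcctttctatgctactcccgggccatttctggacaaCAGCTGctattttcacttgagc
JUND, chr19:18281573-18281872, minus strand: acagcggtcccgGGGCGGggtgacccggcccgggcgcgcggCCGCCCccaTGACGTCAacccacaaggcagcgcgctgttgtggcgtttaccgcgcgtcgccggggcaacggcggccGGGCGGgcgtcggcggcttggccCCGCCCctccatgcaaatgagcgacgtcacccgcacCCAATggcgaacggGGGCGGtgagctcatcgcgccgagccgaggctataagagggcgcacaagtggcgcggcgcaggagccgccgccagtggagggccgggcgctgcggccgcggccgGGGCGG
SPATA17, chr1:217631094-217631393, plus strand: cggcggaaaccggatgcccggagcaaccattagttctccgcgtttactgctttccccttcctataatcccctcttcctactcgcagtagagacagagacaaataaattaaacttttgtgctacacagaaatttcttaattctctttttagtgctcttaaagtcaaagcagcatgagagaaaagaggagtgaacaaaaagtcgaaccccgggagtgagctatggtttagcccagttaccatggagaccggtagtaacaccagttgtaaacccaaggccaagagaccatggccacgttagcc
YLPM1, chr14:74763066-74763365, plus strand: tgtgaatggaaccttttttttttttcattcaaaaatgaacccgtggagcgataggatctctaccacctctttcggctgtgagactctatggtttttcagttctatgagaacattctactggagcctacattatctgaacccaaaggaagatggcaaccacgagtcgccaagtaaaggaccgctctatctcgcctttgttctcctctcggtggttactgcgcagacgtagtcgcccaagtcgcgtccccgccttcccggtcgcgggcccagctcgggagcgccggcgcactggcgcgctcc
H3C3, chr6:26045134-26045433, plus strand: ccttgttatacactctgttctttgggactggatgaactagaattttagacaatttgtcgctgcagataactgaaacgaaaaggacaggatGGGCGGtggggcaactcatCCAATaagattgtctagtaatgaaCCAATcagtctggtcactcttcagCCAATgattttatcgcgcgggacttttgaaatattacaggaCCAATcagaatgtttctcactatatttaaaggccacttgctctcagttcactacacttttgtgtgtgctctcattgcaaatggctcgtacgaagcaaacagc
NEUROG3, chr10:69573373-69573672, minus strand: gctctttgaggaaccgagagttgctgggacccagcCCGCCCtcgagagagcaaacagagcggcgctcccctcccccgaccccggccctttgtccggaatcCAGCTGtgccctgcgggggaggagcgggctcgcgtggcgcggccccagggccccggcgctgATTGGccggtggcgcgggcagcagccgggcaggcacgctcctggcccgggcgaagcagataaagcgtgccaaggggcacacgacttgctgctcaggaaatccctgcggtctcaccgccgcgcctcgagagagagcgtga
FGFRL1, chr4:1012214-1012513, plus strand: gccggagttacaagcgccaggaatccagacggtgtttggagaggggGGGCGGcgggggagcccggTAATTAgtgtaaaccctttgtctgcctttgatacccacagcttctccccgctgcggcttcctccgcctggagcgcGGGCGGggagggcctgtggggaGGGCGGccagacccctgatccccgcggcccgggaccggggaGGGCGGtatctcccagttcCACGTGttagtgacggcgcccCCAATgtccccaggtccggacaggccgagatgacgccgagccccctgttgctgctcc
ISL2 encodes a LIM homeodomain factor and SULF2 a heparan sulfate sulfatase. Their GLTSCR1 summits lay 122 and 85 bases before the start, while the strongest fusion summits lay 4913 bases after and 3039 bases before it. At JUND, which encodes an AP-1 subunit, the GLTSCR1 summit lay 172 bases before the start and the fusion summit 109 bases after it. The GLTSCR1 summits of SPATA17 and YLPM1 lay 14 bases after and 245 bases before the start. No letters of the 10 motifs occurred in either window. H3C3, a replication-dependent histone gene, has 4 CCAAT boxes in its window, and the strongest GLTSCR1 summit of its region lay 695 bases before the start. The fusion summits of NEUROG3, a proneural transcription factor gene, and FGFRL1, an FGF receptor-like gene, lay 158 and 123 bases before their starts. FGFRL1 holds 4 GC boxes in this window and JUND holds 6.

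Most GLTSCR1 regions at 48 h were also fusion regions, while most fusion regions held no GLTSCR1 region. Of the 13677 GLTSCR1 regions, 9129 were shared, 66.7% (65.95 to 67.5). Of the 26405 fusion regions, 6670 were shared, 25.3% (24.7 to 25.8). The fusion list covered 33.4 Mb and the GLTSCR1 list 8.55 Mb, and the 5.36 Mb that they had in common made up 16.1% of the first and 62.7% of the second. Among shared GLTSCR1 regions, 6592 (72.2%) lay wholly inside a fusion region. A fusion region held 1 GLTSCR1 region in 5060 cases, 2 in 992 and 3 or more in 618. The highest number was 18, in a 25.8 kb fusion region over SIM2 (chr21:36691279-36717068), a bHLH-PAS transcription factor gene. Where 1 region met 1 region, in 4612 pairs, the fusion region was the wider in 84.0%, with medians of 1147 bp for the fusion and 438 bp for GLTSCR1.

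How far the lists met depended on how overlap was counted. Within shared regions the strongest GLTSCR1 summit was a median of 141 bp from the nearest fusion summit, and 76.8% of them had a fusion summit within 250 bp. When the strongest summits of both regions had to lie within 250 bp of each other, 26.6% of GLTSCR1 and 13.8% of fusion regions were shared. The fusion list was also limited to its 13677 regions of highest −log10 q, with ties broken by fold. The shares were then 56.2% of GLTSCR1 and 37.3% of fusion regions. Under each of these settings the share of the GLTSCR1 list was the higher of the pair. In the summit setting 3637 GLTSCR1 and 3634 fusion regions were shared, so the order of those shares follows from the list lengths. With equal list lengths 7686 GLTSCR1 and 5095 fusion regions were shared, and 1 fusion region could hold several GLTSCR1 regions.

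The share of fusion regions with GLTSCR1 was higher among strong and wide ones. Of fusion regions in the lowest decile of fold 15.7% were shared, and of those in the highest decile 73.1%. By width, 7.60% of fusion regions of up to 300 bp and 88.7% of those over 5 kb were shared. GLTSCR1 showed another pattern. Its shared part was 73.0% in the lowest decile of fold, 58.0% in the ninth and 68.9% in the highest. By width it went from 49.6% at up to 300 bp to 89.1% between 1 and 2 kb and 71.1% above 5 kb. Regions with GLTSCR1 alone were narrow, with a median of 325 bp against 463 bp for shared ones, yet their median fold was 5.27 against 4.93. That order of the medians held in 5 of the 6 width classes. Above 5 kb the medians were 12.1 without and 12.47 with the fusion.

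**Figure D1:**
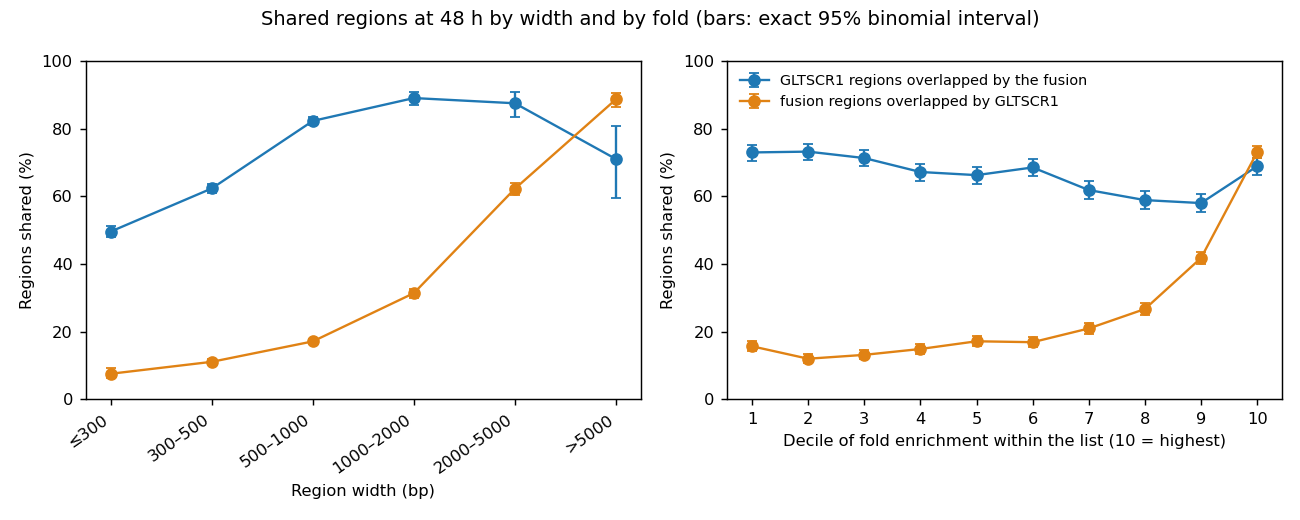
Share of 48 h regions overlapped by the other protein's regions (%, vertical axis), by region width in bp (left) and by decile of fold within the list (right), with GLTSCR1 regions in blue, fusion regions in orange and bars for exact 95% intervals. The fusion line climbs from 7.60% to 88.7% with width and from 15.7% to 73.1% with fold, while the GLTSCR1 line lies between 49.6% and 89.1%.

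Very wide regions of the 2 proteins seldom met. The GLTSCR1 list held 76 regions over 5 kb and the fusion list 965. Only 5 of these wide GLTSCR1 regions met a wide fusion region, while 2471 of the 13601 GLTSCR1 regions of up to 5 kb did. Of the 76, 54 were shared, but fusion regions covered 20.0% of their length. The widest GLTSCR1 region (53.4 kb, fold 27.7) lay in DNM3, a dynamin gene, at chr1:172135692-172189114 and met 7 smaller fusion regions with folds of up to 4.95. The next, 50.3 kb over KERA at chr12:91029882-91080142, met 1 fusion region of fold 3.23. A region of 48.5 kb over ZIC4 (chr3:147347890-147396406), a zinc finger gene of neural development, met 6 fusion regions with folds of up to 10.1. One of 32.2 kb over LUM met 3, and one of 14.3 kb over DCN met 1. Keratocan (KERA), lumican (LUM) and decorin (DCN) are small leucine-rich proteoglycans of the extracellular matrix whose genes lie side by side on chromosome 12. The region of 22.6 kb at chr6:27811421-27834040, over H2AC14, H2BC14, H4C11 and H4C12, met 4 fusion regions with folds of up to 6.40.

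The widest fusion region (47.1 kb, fold 16.3) lay over NFATC1, a transcription factor gene of lymphocytes and heart valves, at chr18:79417510-79464618, and held 2 GLTSCR1 regions with folds of up to 5.66. A region of 45.0 kb in INPP5A (chr10:132708995-132754009), an inositol phosphatase gene, held 14 GLTSCR1 regions, and its neighbour of 37.7 kb from INPP5A through the homeobox gene NKX6-2 to CFAP46 held 10. The fusion also formed 1 region of 32.3 kb over HOXA3, HOXA6, HOXA7, HOXA9 and HOXA10 (chr7:27145215-27177480), which held 4 GLTSCR1 regions with folds of up to 11.6. Among the widest regions without any GLTSCR1 at 48 h were 32.1 kb at chr1:161440427-161472529, 32.9 kb from FCGR2A, and 14.2 kb in PRDM16 (chr1:3351377-3365544), a zinc finger methyltransferase gene. The first of these met GLTSCR1 regions of folds 3.64 at 12 h and 3.20 at 96 h. The fusion regions in PRDM16 were called in all 4 fusion lists, with folds of 10.9, 11.9, 12.4 and 13.4 from DMSO to 48 h, and the GLTSCR1 lists held none there.

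Fusion-only regions lay near chromosome ends more often than GLTSCR1-only regions. Within 5 Mb of the outermost annotated gene of a chromosome arm, short arms of acrocentric chromosomes left out, lay 22.8% (22.2 to 23.4) of fusion-only and 7.74% (6.98 to 8.55) of GLTSCR1-only regions. The shared regions were at 20.4% by the GLTSCR1 list and 17.4% by the fusion list, and 13.3% of protein-coding genes lie there. Of the 109 fusion-only regions over 5 kb, 78 were in these outer parts (71.6%), and of the 22 such GLTSCR1-only regions 0 were (0 to 15.4%). Several of the widest GLTSCR1-only regions lay side by side in DNM3 and near DCN. They rest on fewer separate loci than regions, and the interval treats them as independent. The order was the same away from gene ends, at 22.1% of fusion-only and 7.84% of GLTSCR1-only regions.

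At gene ends the 2 lists divided differently. A gene end is the 1 kb on either side of either end of a protein-coding gene span. Of GLTSCR1-only regions 21.2% (20.0 to 22.4) touched one, against 15% (14.3 to 15.7) of the shared GLTSCR1 regions. In the fusion list the shared regions touched gene ends more often, at 21.5% (20.5 to 22.5), than the fusion-only regions at 15.6% (15.1 to 16.1). The difference in the GLTSCR1 list turned round when only strongest summits within 250 bp counted as shared, to 16.8% without and 17.7% with the fusion. It was also turned round among regions over 2 kb: between 2 and 5 kb the shares were 16.7% without and 25.8% with the fusion, with intervals that overlap. The difference in the fusion list was present in each width class up to 2 kb, with 18.9% of shared and 13.9% of fusion-only regions between 1 and 2 kb. Between 2 and 5 kb these shares were 16.3% and 14.9%, with intervals that overlap. Above 5 kb they were 21.96% and 22.02%, so no difference was seen there. Seen by place, 58.7% of GLTSCR1 regions at gene ends were shared, 70.8% of those elsewhere inside gene spans and 66.2% of those between genes. For fusion regions these shares were 31.7%, 23.8% and 24.0%.

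Around gene starts the summits of the single-protein classes leaned to different sides. Regions of chromosome 8, for which no starts were used here, were left out of this count, which leaves 4285 GLTSCR1-only and 18652 fusion-only regions. Strongest summits within 1 kb of a start made up 18.8% (17.6 to 20.0) of the former and 10.8% (10.4 to 11.2) of the latter. Of these, 59.3% (55.8 to 62.7) of the GLTSCR1-only summits were upstream of the start and 42.8% (40.6 to 45.0) of the fusion-only summits. The median position was 117.5 bp upstream for GLTSCR1 only and 89 bp downstream for the fusion only. Shared regions lay between these, at 83 bp upstream by the GLTSCR1 summit and 57 bp upstream by the fusion summit. Starts were known for 15842 of 20033 protein-coding genes.

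**Figure D2:**
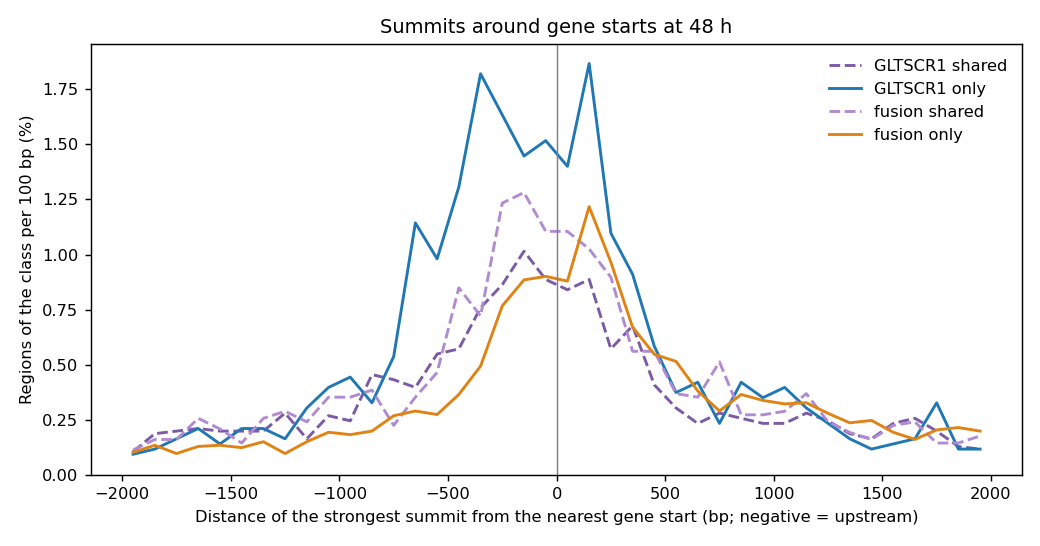
Position of the strongest summit relative to the nearest gene start (bp, negative upstream, bins of 100 bp) for the 4 classes of 48 h region, as the percentage of the class in each bin. The GLTSCR1-only line is the highest close to the start on both sides, and both single-protein lines have their highest bin 100 to 200 bp after the start.

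The promoter windows of the 3 gene groups differed in base composition. A region of both lists overlapped 453 of the 15842 promoters, GLTSCR1 alone 484 and the fusion alone 1350. Median GC content was 70.0% under the fusion alone, 67.0% under both, 62.0% under GLTSCR1 alone and 61.7% under neither. All 3 bound groups were rich in CpG: the ratio of observed to expected CpG was at least 0.6 in 88.3% of promoters with both proteins, 86.6% with GLTSCR1 alone and 88.2% with the fusion alone, against 61.8% with neither. The 8 printed promoters ranged from 42% GC at H3C3 to 77.0% at JUND, so single promoters varied far more than the medians.

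Motif matches differed between the groups as well. The GC box occurred in 80.1% (77.9 to 82.2) of fusion-only, 68.7% of shared and 64.7% (60.2 to 68.9) of GLTSCR1-only promoters, and in 58.3% of all promoters. Among promoters with a CpG ratio of at least 0.6 these shares were 84.6%, 74.5% and 68.5%, against 76.8% of such promoters with neither protein, so there the fusion-only share was above and the GLTSCR1-only share below the unbound one. The ETS letters were in 20.0% (16.6 to 23.9) of GLTSCR1-only, 11.4% (9.76 to 13.2) of fusion-only and 10.2% of shared promoters, against 14.2% of all. In the CpG-rich promoters the ETS shares were 22% for GLTSCR1 only, 12.6% for the fusion only and 21% for neither. The YY1 letters were in 5.17% (3.37 to 7.53) of GLTSCR1-only and 2.07% (1.38 to 2.98) of fusion-only promoters, and 2.69% of all. In the CpG-rich promoters they were in 5.25% (3.32 to 7.84) of GLTSCR1-only, 2.35% of fusion-only and 4.15% of unbound ones. The CCAAT box was in 38.0% of GLTSCR1-only, 30.4% of fusion-only and 36.4% of all promoters. Shares over all promoters were 5.70% for AP-1, 2.56% for CRE, 9.75% for the TATA box, 3.36% for the homeobox letters, 17.5% for CAGCTG and 8.82% for CACGTG. Within the CpG-rich promoters the TATA box was in 9.75% (7.03 to 13.1) with both proteins and 9.79% (7.11 to 13.04) with GLTSCR1 only. With the fusion only it was in 6.05% (4.76 to 7.55), and with neither in 4.40% (3.98 to 4.87). The first 2 intervals lay above the unbound one, and that of the fusion only overlapped it. A match describes the letters and shows no factor there.

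Counted by gene, the fusion was at more gene ends than GLTSCR1. Of 20033 protein-coding genes 11.1% (2230) had a GLTSCR1 region at an end and 18.6% (3729) a fusion region. Both proteins were found at 1355 genes (6.76%), GLTSCR1 only at 875 (4.37%) and the fusion only at 2374 (11.9%). At 1011 of the 1355 genes the strongest regions of the 2 lists overlapped. With the fusion list limited to the length of the GLTSCR1 list these counts became 872, 1358 and 1094, so the order of the single-protein groups rests on the longer fusion list. In DMSO the numbers were 2591 with both, 3642 with GLTSCR1 only and 1281 with the fusion only. At 12 h they were 1916, 3405 and 1805, and at 24 h 1168, 1772 and 2157. The number of GLTSCR1-only genes was thus lowest at 48 h among these 4 conditions, and that of fusion-only genes highest. The GLTSCR1 lists of these conditions held 18037, 16021, 15330 and 13677 regions in that order, and the fusion lists 24953, 28619, 24846 and 26405.

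Of the 2374 fusion-only genes at 48 h, 1051 (44.3%) had a GLTSCR1 region at an end in DMSO, against 31.1% of all genes. At 12, 24 and 96 h 740, 344 and 402 of them did (31.2%, 14.5% and 16.9%). Of genes with neither protein at 48 h, 17.4%, 6.73% and 6.07% did. Of the fusion-only genes 1085 had none in any other GLTSCR1 list, as did 11287 of the 15429 genes with neither protein. The 875 GLTSCR1-only genes had a GLTSCR1 region in DMSO in 780 cases (89.1%) and a fusion region in DMSO in 274 (31.3%). Of all genes in DMSO, 12.9% had both proteins and 6.39% the fusion only. At 465 of the 875 no other fusion list held a region either, as at 13231 of the 15429 genes with neither protein. Genes with both proteins at 48 h had both in DMSO in 1010 of 1355 cases, and 477 had a region in all 7 other lists.

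Genes that ranked high by fold in both lists at 48 h included KIF26A, MAF, ELFN1, SECTM1, THSD7A, HOXA9 and SIM1. At ELFN1 and SECTM1 the strongest regions of the 2 lists did not overlap, and at each they lay at opposite ends of the gene. KIF26A encodes an atypical kinesin, MAF and SIM1 transcription factors, ELFN1 a synaptic adhesion protein and THSD7A a thrombospondin-domain protein. At THSD7A the GLTSCR1 folds in DMSO and at 12, 24, 48 and 96 h were 7.3, 4.4, 5.1, 20.8 and 4.5, and the fusion folds in DMSO and at 12, 24 and 48 h were 16.8, 10.5, 7.4 and 11.9. It was called in all 9 lists, and so were KIF26A, ELFN1, SECTM1 and SIM1. MAF had a GLTSCR1 region in DMSO, at 24 h and at 48 h, with folds of 3.5, 10.0 and 14.3, and none at 12 or 96 h, while the fusion was there in all 4 lists. HOXA9 had GLTSCR1 in DMSO and at 48 h alone, with folds of 4.55 and 11.6.

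**Figure D3:**
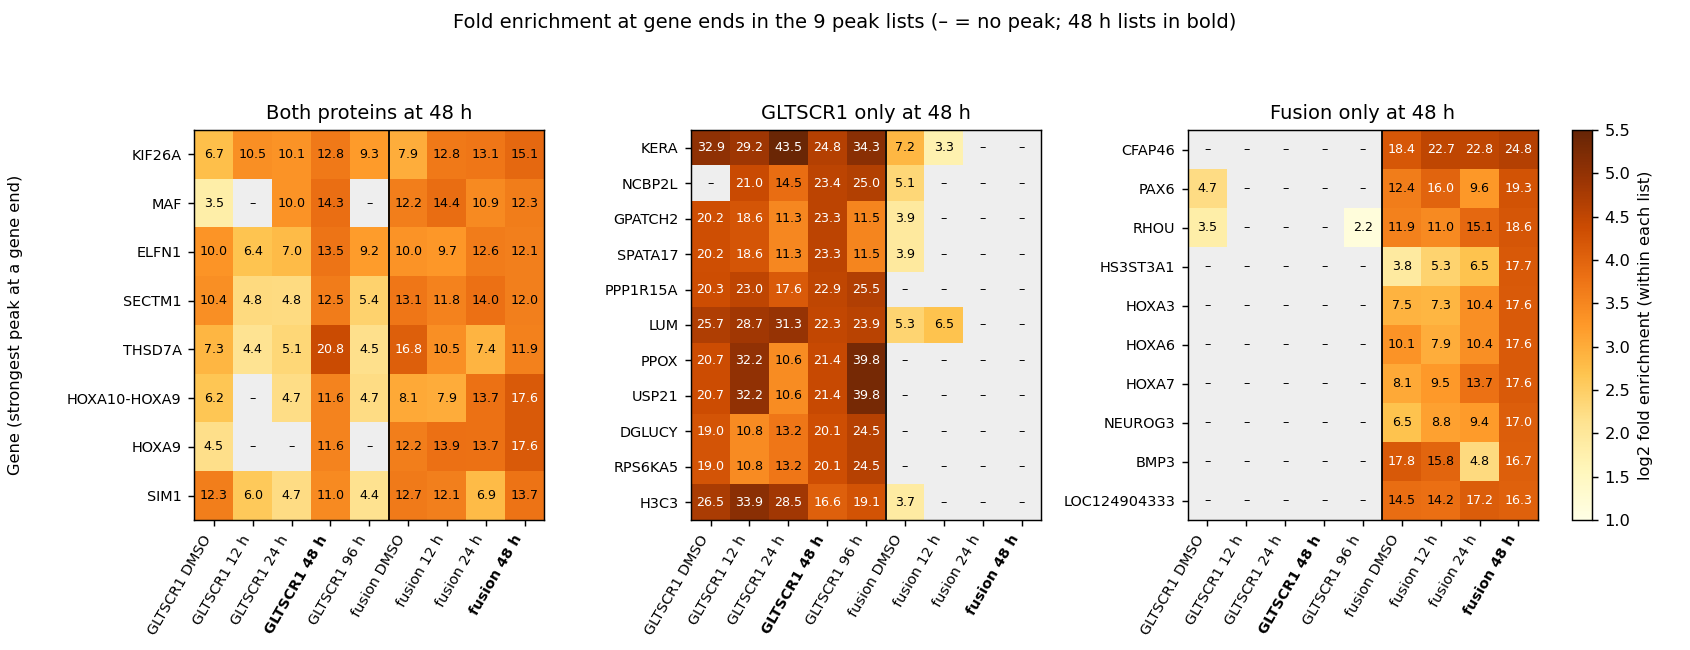
Fold of the strongest region at a gene end in each of the 9 lists, for the leading genes with both proteins (left), GLTSCR1 only (middle) and the fusion only (right) at 48 h, coloured by log2 fold, with a dash where no region was called. Genes on the left are filled in nearly all lists, those in the middle mainly in the 5 GLTSCR1 columns, and those on the right mainly in the 4 fusion columns.

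Genes with GLTSCR1 only were led by KERA (fold 24.8), NCBP2L (23.4), the neighbours GPATCH2 and SPATA17 (23.3), PPP1R15A (22.9), LUM (22.3), PPOX and USP21 (21.4), DGLUCY and RPS6KA5 (20.1) and H3C3 (16.6). PPP1R15A encodes a stress-induced phosphatase subunit, PPOX a heme synthesis enzyme, USP21 a deubiquitinase and RPS6KA5 a histone H3 kinase. At PPP1R15A the GLTSCR1 folds in DMSO and at 12, 24, 48 and 96 h were 20.3, 23.0, 17.6, 22.9 and 25.5. No fusion list held a region at its ends. The same held for PPOX and USP21, which share 1 region, and for DGLUCY and RPS6KA5, which share another. KERA and LUM had fusion regions at their ends in DMSO and at 12 h, and at 48 h small fusion regions lay elsewhere within their wide GLTSCR1 regions, so for them the class holds for the gene ends only. H3C3 likewise shares its GLTSCR1 region of 11.7 kb with H2BC3, which had a fusion region of fold 2.91.

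Genes with the fusion only were led by CFAP46 (24.8), PAX6 (19.3), RHOU (18.6), HS3ST3A1 (17.7), the HOXA3, HOXA6 and HOXA7 region (17.6), NEUROG3 (17), BMP3 (16.7) and LOC124904333 (16.3). PAX6 encodes a paired-box factor of eye and brain, RHOU a small GTPase, HS3ST3A1 a heparan sulfate sulfotransferase and BMP3 a bone morphogenetic protein. At NEUROG3 the fusion folds in DMSO and at 12, 24 and 48 h were 6.5, 8.8, 9.4 and 17, with no GLTSCR1 region at an end in any of the 5 lists. CFAP46, HS3ST3A1 and BMP3 also had none at an end in any GLTSCR1 list. PAX6 had one in DMSO, of fold 4.7, and RHOU had one in DMSO and one at 96 h, of folds 3.5 and 2.2. The wide fusion regions of CFAP46, LOC124904333 and the HOXA genes hold GLTSCR1 regions farther along, as given above, so their class too is that of the gene ends.

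The 19 gene lists divided unevenly between the proteins, and they are described by counts, with no test. Developmental lists leaned to both proteins or the fusion. Of 24 genes tied to the synovial sarcoma fusion 16 had both, 6 the fusion only and 1 (PDGFRA) GLTSCR1 only, against 6.76%, 11.9% and 4.37% of all genes. Those shares of all genes are the reference for every list at 48 h. In DMSO 22 of the 24 had both, 1 the fusion only and 0 GLTSCR1 only. These genes were listed for their link to the fusion, so their high fusion share is no independent support. MNX1, a motor neuron homeobox gene, had a GLTSCR1 fold of 10.2 and a fusion fold of 14.9. ZIC5 had 7.90 and 14.5, EPHA4, an ephrin receptor, 13.2 and 5.99, and UNCX, a homeobox gene, 5.48 and 12.6. The fusion-only genes included HMX3 (10.4), FGF9 (8.19), FGFR2 (7.29), NR4A2 (5.30) and TLE1 (4.04), the last a corepressor used as a diagnostic marker of synovial sarcoma. All of these 5 but NR4A2 had a GLTSCR1 region in DMSO.

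Of 39 HOX genes 22 had both proteins, 14 the fusion only and 1 GLTSCR1 only. HOXB and HOXC genes mostly had both, 8 of 10 and 8 of 9, while HOXA and HOXD genes mostly had the fusion only, 8 of 11 and 5 of 9. In DMSO both proteins were at 8 of 10 HOXB, 9 of 9 HOXC and 3 of 11 HOXA genes, and the fusion alone at 1, 0 and 7. HOXD genes were evenly split there, with both at 4 of 9 and the fusion alone at 4. Because neighbours share regions, the 39 genes rest on 19 GLTSCR1 and 28 fusion regions. HOXB9 had the highest GLTSCR1 fold among them at 48 h, 23.5, and those in DMSO and at 12, 24 and 96 h were 11.6, 4.54, 5.20 and 5.68. Its fusion folds were 10.3, 8.30, 8.18 and 10.9. HOXB13 (7.55) was the HOX gene with GLTSCR1 only, and no fusion list held a region at its ends.

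Other developmental transcription factors had both proteins in 32 of 88 cases, the fusion only in 40 and GLTSCR1 only in 0. Among those with both, IRX3 had folds of 17.3 for GLTSCR1 and 9.72 for the fusion, IRX4 5.71 and 15.9, and NKX2-2 9.05 and 15.5. PAX6, IRX2 (13.5), POU4F1 (13.4) and LHX3 (13.1) were among the fusion-only genes. The neighbours IRX2 and IRX4 thus fell into different classes, and IRX2 had no GLTSCR1 region at an end in any list. Developmental signalling genes had both in 18 of 58, the fusion only in 22 and GLTSCR1 only in 1, WNT5A (5.98). FGF8 had both, with folds of 18.1 and 10.4, as did the hedgehog effector GLI1 with 11.9 and 6.25, the retinoic acid synthase ALDH1A2 with 7.41 and 11.4, and FGF19 with 11.2 and 8.92. BMP3, WNT16 (13.2), BMP5 (11.5) and FGFR3 (8.59) were in the fusion-only group. HHIP, a hedgehog inhibitor, was fusion only at 48 h with 6.86, and its GLTSCR1 folds in DMSO and at 12, 24 and 96 h were 24.1, 11.3, 5.53 and 5.53.

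Replication-dependent histone genes leaned to both proteins or GLTSCR1. Of 49 genes 26 had both, 19 GLTSCR1 only and 0 the fusion only, resting on 23 GLTSCR1 and 19 fusion regions. The shares of all genes were 6.76%, 4.37% and 11.9%. GLTSCR1 was at 91.8% of the histone genes, against 11.1% of all genes. The fusion was at 53.1% of them, also above its 18.6% of all genes. In DMSO 38 of the 49 had both, 8 GLTSCR1 only and 0 the fusion only. Over bound genes of this list, by the strongest region at an end, the median GLTSCR1 fold was 11.6. Neighbours that share a region each count there. Over all genes the like medians were 5.44 with both proteins and 5.02 with GLTSCR1 only. Within the fusion list the histone median was 3.84, where the like medians were 5.18 with both proteins and 4.69 with the fusion only. GLTSCR1 formed 1 region of 13.8 kb with a fold of 20.4 at H2AC16, H1-5, H3C11 and H4C13. The fusion regions at these genes were under 1 kb wide. H3C3 had GLTSCR1 folds of 26.5, 33.9, 28.5, 16.6 and 19.1 in DMSO and at 12, 24, 48 and 96 h, and fusion regions at its end in DMSO alone (3.75). H2BC7, H2AC7 and H3C4 shared a GLTSCR1 region of fold 15.4. Histone genes are near-identical copies of each other, and how reads that fit several copies were placed is not given in the sources used here, so their single values are uncertain.

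**Figure D4:**
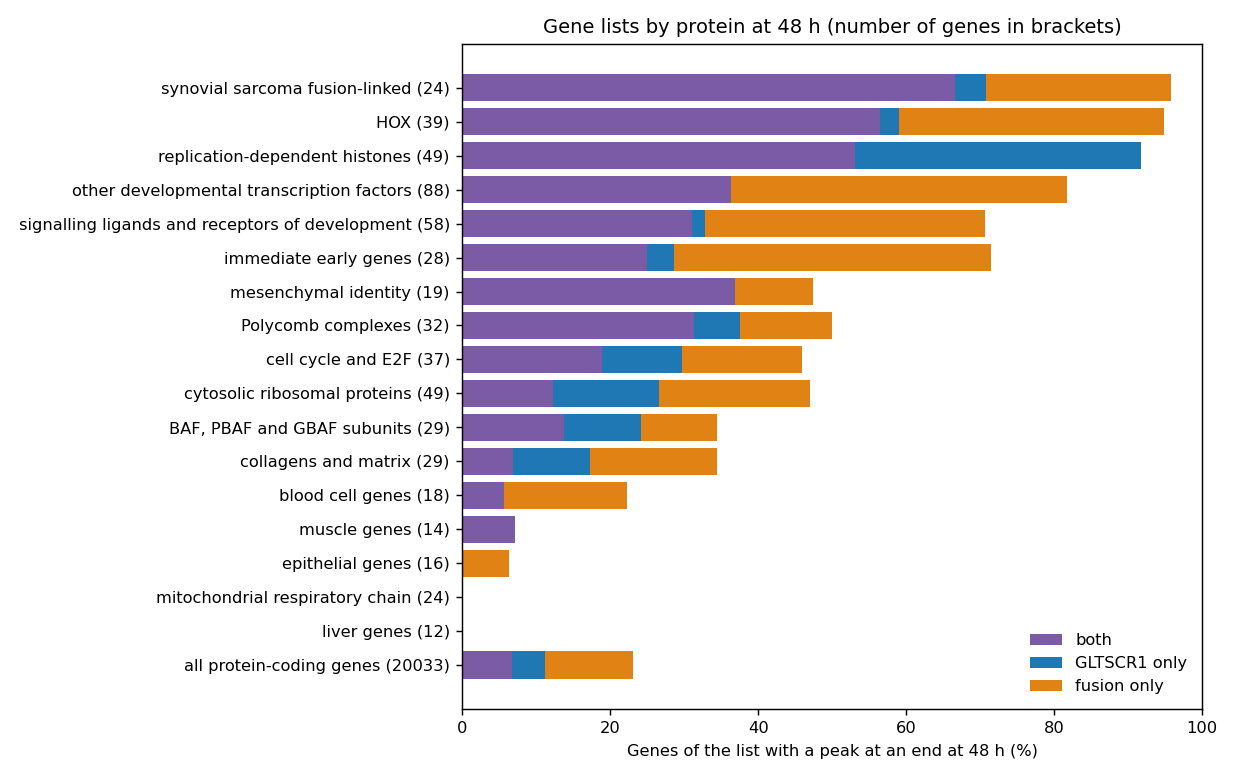
Percentage of each gene list with both proteins (purple), GLTSCR1 only (blue) or the fusion only (orange) at a gene end at 48 h, with the number of genes in brackets and all 20033 protein-coding genes at the bottom. Synovial sarcoma-linked, HOX and histone genes have the longest bars, and the histone bar has no orange part.

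Housekeeping lists were divided more evenly. Of 49 cytosolic ribosomal protein genes 6 had both, 7 GLTSCR1 only and 10 the fusion only. RPL37 had folds of 6.32 for GLTSCR1 and 2.66 for the fusion, RPL23 7.33 for GLTSCR1 alone and RPS2 4.71 for the fusion alone. In DMSO the counts for this list were 24, 15 and 4, and the shares of all genes were 12.9% with both, 18.2% with GLTSCR1 only and 6.39% with the fusion only. Of 37 cell cycle genes 7 had both, 4 GLTSCR1 only and 6 the fusion only: CCND2 and CDK6 had both (6.32 and 8.45, 7.13 and 6.23), CCNE1 GLTSCR1 only (4.15), and the CDK inhibitor genes CDKN1C (8.92) and CDKN1B (7.51) the fusion only. In DMSO they stood at 12, 18 and 2. None of the 24 respiratory chain genes had either protein at an end at 48 h, and 11 had GLTSCR1 in DMSO, where it was at 31.1% of all genes, against 11.1% at 48 h.

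Immediate early genes, which respond to growth factors within minutes, had both proteins in 7 of 28 cases, the fusion only in 12 and GLTSCR1 only in 1, FOSL2 (3.99). The shares of all genes were 6.76%, 11.9% and 4.37%. In DMSO 14 of the 28 had both, 4 the fusion only and 6 GLTSCR1 only, and 12.9%, 6.39% and 18.2% of all genes did. JUND had GLTSCR1 folds of 39.2, 20.3, 10.3, 24.0 and 9.56 in DMSO and at 12, 24, 48 and 96 h, and fusion folds of 4.70 in DMSO, 3.61 at 24 h and 5.36 at 48 h. FOS had GLTSCR1 folds of 27.6, 22.2, 3.92 and 19.4 in DMSO and at 12, 24 and 96 h, and no GLTSCR1 region at an end at 48 h, when its fusion fold was 4.88. One of the strongest GLTSCR1-only regions away from gene ends lay 19.0 kb from FOS (chr14:75258555-75259807), with folds of 39.9, 19.7, 21.8, 32.9 and 61.3 in the 5 GLTSCR1 lists from DMSO to 96 h and no region in any fusion list.

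Among 29 BAF, PBAF and GBAF subunit genes, the genes of the complexes themselves, 4 had both, 3 GLTSCR1 only and 3 the fusion only. The other 19 had neither, as did 77.0% of all genes. ARID1A had folds of 7.05 for GLTSCR1 and 4.66 for the fusion, the GLTSCR1 paralogue BICRAL 7.08 and 4.26, and SMARCE1 6.37 for GLTSCR1 alone. BRD9 (chr5:863741-892801), whose protein WA-68 targets, had the fusion only at 48 h (4.80) and GLTSCR1 in DMSO alone (4.41). SS18 (chr18:26016253-26091219) had GLTSCR1 only (4.39), after fusion folds of 5.90 in DMSO and 4.50 at 12 h. BICRA (chr19:47608196-47703277) had neither, and none of 8 SSX genes had a region at an end in any list. Of 32 Polycomb genes 10 had both, 2 GLTSCR1 only and 4 the fusion only. BCOR had folds of 12.6 and 7.66, BMI1 5.81 and 11.1, and CBX8 7.49 and 8.85. Of 4 BET genes BRD2 alone was in both lists, with 12.9 for GLTSCR1 and 3.86 for the fusion.

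Lists of tissue genes served as a check of the cell type label. Mesenchymal genes had both proteins in 7 of 19 cases and the fusion only in 2, among them MEOX2 (4.92 and 8.36), VIM (5.23 and 4.07) and OSR1 (fusion only, 10.5). Matrix genes had both in 2 of 29, DCN (22.6 and 4.75) and COL6A1 (8.50 and 4.84), GLTSCR1 only in 3, LUM, COL1A1 (12.5) and COL3A1 (4.23), and the fusion only in 5, led by COL9A1 (8.89) and COL18A1 (8.28). Epithelial genes were bound in 1 of 16 cases, blood genes in 4 of 18 (both at LMO2, the fusion only at HBA1, IKZF3 and TAL1), muscle genes in 1 of 14 (ACTA1, both) and liver genes in 0 of 12. Of all protein-coding genes 77.0% had neither protein at an end. This share was 52.6% of mesenchymal, 65.5% of matrix, 93.8% of epithelial, 77.8% of blood, 92.9% of muscle and 100% of liver genes. The blood genes were thus near the share of all genes. A peak near a gene is not its expression, so these counts describe loci and do not identify cells.

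Away from gene ends the strongest shared region, by the lower of its 2 ranks, was chr1:2459048-2460160 inside PLCH2, a phospholipase gene, with folds of 18.3 for GLTSCR1 and 15.7 for the fusion. It was called in all 9 lists. The next were at chr9:13427474-13430122, 148 kb from MPDZ (17.7 and 18.1), chr7:1412542-1413163, 21.2 kb from MICALL2 (21 and 15.6), chr21:45608747-45610252, 33.5 kb from PCBP3 (16.5 and 23.6) and chr10:132654653-132655619 inside INPP5A (15.4 and 20.5).

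The strongest GLTSCR1-only region was also inside INPP5A, at chr10:132637707-132638233, with folds of 3.51, 22.5, 14.2, 36.9 and 23.5 from DMSO to 96 h and a single fusion call, at 12 h (4.80). The others were the region near FOS, chr16:72502096-72502672, 252 kb from PMFBP1 (32.5), chr19:53867293-53867831 inside MYADM (25.0), where the other 3 fusion lists held regions of folds 5.83, 5.88 and 6.61, and chr15:94670405-94670889, 186 kb from MCTP2 (23.6). The strongest fusion-only region was chr7:934410-938265 inside ADAP1, with fusion folds of 42.5, 38.9, 29.7 and 30.8 from DMSO to 48 h. It held GLTSCR1 regions of folds 4.08 in DMSO and 4.49 at 96 h. The next were chr6:170218950-170219993, 62.2 kb from the Notch ligand gene DLL1 (17.8), chr11:36860082-36869392, 201 kb from IFTAP (16.4), where the other 4 GLTSCR1 lists held regions of folds 4.78 to 5.28, chr16:89082524-89084501, 9.35 kb from ACSF3 (15.8), and chr7:1320226-1328563, 82.9 kb from UNCX (15.5), where GLTSCR1 was called at 12, 24 and 96 h.

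The classes made at 48 h were then looked up in the other 7 lists. Shared GLTSCR1 regions were fusion regions in DMSO and after 12 and 24 h in 89.7%, 88.3% and 85.1% of cases, and GLTSCR1-only regions in 21.5%, 18.3% and 13.1%. By GLTSCR1 itself the 2 classes were less far apart. In DMSO, 12, 24 and 96 h they were GLTSCR1 regions in 72.6%, 63.2%, 64.6% and 70.6% of cases for shared regions, and in 56.3%, 63.5%, 68.9% and 67.3% for GLTSCR1-only regions. Fusion-only regions were found in the other fusion lists in 61.3%, 66.2% and 59.3% of cases in the same order, against 87.5%, 85.7% and 82.0% of the shared fusion regions. GLTSCR1 regions in DMSO met 15.5% of fusion-only regions, those of 12, 24 and 96 h met 8.77%, 7.97% and 8.61%, and 76.0% met none in any other GLTSCR1 list. Of GLTSCR1-only regions 65.1% met no region in any other fusion list, and 32.7% were in all 4 other GLTSCR1 lists.

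**Figure D5:**
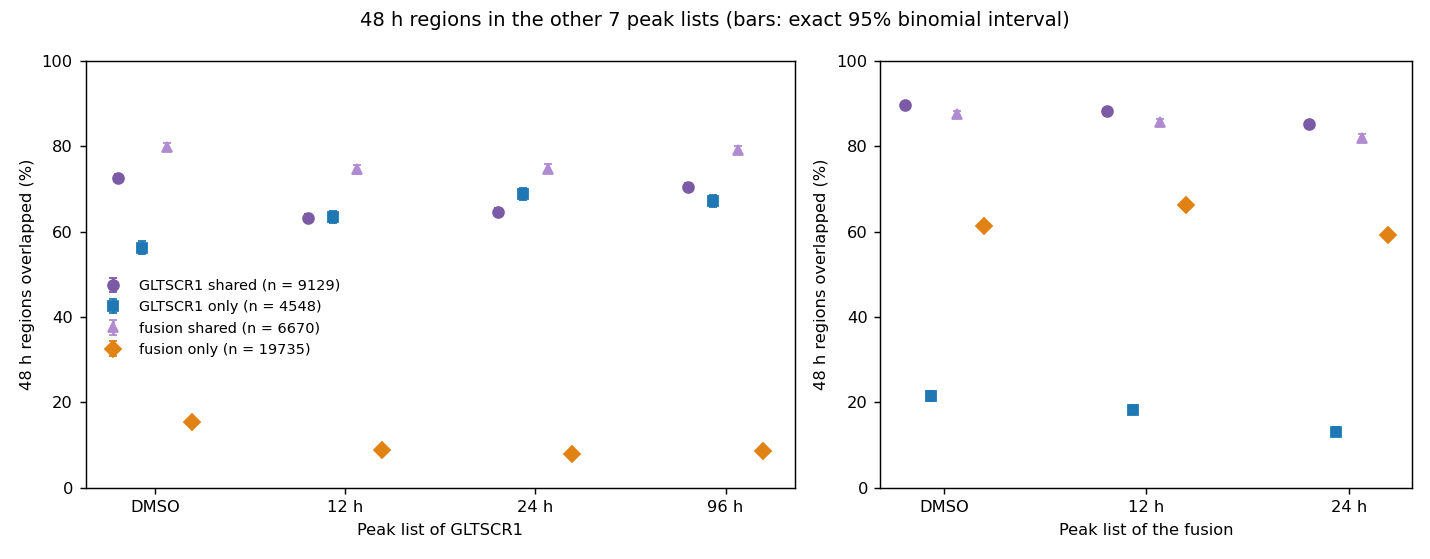
Percentage of each class of 48 h region (symbols) that was overlapped by a region of the other GLTSCR1 lists (left) and fusion lists (right), with exact 95% intervals that are mostly smaller than the symbols. Fusion-only regions stay at or under 15.5% in the GLTSCR1 lists, and GLTSCR1-only regions at or under 21.5% in the fusion lists.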

How the data were processed

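ChIP-seq peak lists of HS-SY-II cells were used as deposited, 1 list for each library. Per the submitters' processing notes the build is GRCh38, and the tools included MACS2, BWA, Picard, SAMtools, Trim Galore with cutadapt, FastQC, bcl2fastq and deepTools. For versions and settings, not given in the sources used here, nothing is assumed. For each summit the authors deposited a fold enrichment (a linear ratio over local background), a −log10 p, a −log10 q and a display score. The lowest deposited −log10 q was 3.00 in each list. Peaks were called per library, by the peak names in the deposited files. The reads of the inputs were not analysed here.

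Rows with equal coordinates were joined and took the values of their strongest summit. Gene spans came from RefSeq (GRCh38.p14, 20033 protein-coding genes), and starts from its promoter table, which matched 15842 genes by gene ID. Of 578 gene list symbols 577 matched. Members and lists were chosen with earlier results of these data known. The text names, at gene ends, 8 genes per class (both by the better worst rank, the single classes by fold, neighbours with 1 region as 1), up to 4 members of each list per class, and BRD9, BICRA, SS18 and SSX. Elsewhere it names 5 regions per class and the widest regions. Genes and regions on chromosome 8 were counted and not named. A few other genes that the rule names are counted and not reported by name here. HHIP, TLE1, NR4A2, VIM, the promoters of JUND and H3C3 and the wide regions at SIM2, FCGR2A, PRDM16, DCN and the histone genes were named after their values were seen. Python 3.11.15, pandas 2.3.3, numpy 2.4.6 and scipy 1.17.1 were used, and the overlap code was tested on simulated regions.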

Additional observations from a re-analysis of the deposited data

Results flagged for a closer look

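Regions outside chromosomes 1 to 22, X and Y were left out of the comparison and still held signal. The GLTSCR1 list at 48 h had 26 such regions, of which 16 overlapped a fusion region, with folds of up to 9.77. The fusion list had 60, of which 13 overlapped a GLTSCR1 region, with folds of up to 15.7. Together they lay on 14 unplaced or alternative sequences. What these regions are was not tested.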

How the results depend on the processing

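No paired analysis was possible because each group held 1 library. Of 62 values under alternative settings 24 stayed within the counting interval of the reported value or, for gene counts, within 1.5 times it, and 38 did not. The GLTSCR1 regions shared, 66.7% as reported, were 63.5% when overlap had to reach 50% of the shorter region, 26.6% with strongest summits within 250 bp, 61.6% with −log10 q of at least 5 in both lists, 56.2% with the fusion list limited to the length of the GLTSCR1 list, 64.5% with regions within 500 bp merged and 51.3% with the strongest summit within 250 bp of any summit of the other list. In the same order the fusion regions shared, 25.3%, were 23.6%, 13.8%, 24.7%, 37.3%, 29.96% and 17.1%, and 22.9% without regions over 5 kb. The last 2 settings were added after the data were seen. Gene-end shares of GLTSCR1-only regions, 21.2%, were 16.8% by summits, 23.2% with equal list lengths, 17.2% with windows of 500 bp, 29.6% with windows of 3 kb and 19.0% around gene starts; those of shared GLTSCR1 regions, 15% as reported, were 17.7%, 12.3%, 11.3%, 23.9% and 11.7%, and 16.1% after merging. Fusion-only regions, 15.6%, gave 16.6%, 14.8%, 11.8%, 23.3% and 11.7%, and 18.0% after merging. Shared fusion regions, 21.5%, gave 19.2% with equal lengths, 18.2% and 28.5% with the other windows, 16.4% around starts and 23.5% after merging. Equal list lengths also moved the genes with both proteins from 1355 to 872, with GLTSCR1 only from 875 to 1358 and with the fusion only from 2374 to 1094. The gene-end share of GLTSCR1-only regions was above that of shared ones in 7 of 8 settings, and that of shared fusion regions above fusion-only ones in 8 of 8. None of these settings divided the regions by width, and neither order held in every width class. The fusion share moves with the number of regions called, and depth is unknown.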
